A study of Mus musculus with 5 samples.

Results

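The type I interferon-stimulated genes are genes that cells switch on when interferon alpha or beta binds its receptor. Here they are described in regulatory T (Treg) cells, a class of CD4 T cells defined by the transcription factor Foxp3 that holds immune responses in check. A list of 37 symbols was looked up in the deposited gene tables, which hold 38130 entries, and a symbol counted as a member where its FPKM (a fragment count per kilobase of transcript that is corrected for sequencing depth) reached 1 in at least 1 of the 5 libraries. All 37 symbols were found and 36 passed. Ifi44 stayed outside with a highest FPKM of 0.567, and Mx2 lay just inside with 1.81. Sorting took CD4+YFP+ cells of C57BL/6 mice, and every group carried Foxp3-Cre-YFP, in which Foxp3 drives the Cre recombinase and a yellow fluorescent protein. The wild type (WT) groups were 1 library at 21 days and 1 at 6 weeks. A group labelled as Malt1 deleted in Treg cells (malt1fl/fl, KO) was 1 library at 21 days, and a group with 1 floxed and 1 C472A allele of Malt1 (malt1fl/C472A, KI), labelled as having its protease activity inhibited, was 2 libraries at 6 weeks. The question behind the design is what Treg cells lose or gain when Malt1, a paracaspase that signals from antigen receptors to NF-kB, is deleted or altered in this way. KI carries a floxed allele beside C472A, and the labels do not say how many animals gave a library or whether the KI libraries are of different animals. The p-values therefore set a difference against a spread that comes from the KI pair alone, and that spread may be technical.

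Type I interferon binds the receptor chains IFNAR1 and IFNAR2, whose kinases JAK1 and TYK2 phosphorylate STAT2. Together with IRF9 it takes part in a complex that binds the interferon-stimulated response element (ISRE) in target promoters. The products sense viral nucleic acid, block viral RNA and proteins, conjugate ISG15 to proteins or, as with USP18, restrain the receptor. Many of the genes are also transcribed at a low level without infection.

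Promoter windows from RefSeq (mouse build GRCm38.p6, 250 bases before to 50 after a gene's start) were found for 26 of the 36 members. They were searched on both strands for the core of an ISRE, which is GAAA, any 2 bases and GAAA again, and for TTCNNNGAA, the gamma-activated site bound by STAT dimers. The first was held by 13 of the 26 members (50%), against 3.99% of all 27025 symbols with a window. The second was held by 6 of the 26 (23.1%), against 9.55% of symbols. The 250 bases before the start are shown for the 4 members with the largest difference between KI and WT at 6 weeks that hold the first motif, and for Oasl1 as a member among the 10 largest differences without it. Matches to the ISRE core or its reverse complement are in capitals, each sequence runs 5′ to 3′ on the gene's strand, and in Bst2 the matches overlap. Coordinates are chr19:34583279-34583528 (plus strand), chr8:71537473-71537722 (minus), chr19:34640639-34640888 (plus), chr12:26456453-26456702 (minus) and chr5:114922990-114923239 (plus).
Ifit3: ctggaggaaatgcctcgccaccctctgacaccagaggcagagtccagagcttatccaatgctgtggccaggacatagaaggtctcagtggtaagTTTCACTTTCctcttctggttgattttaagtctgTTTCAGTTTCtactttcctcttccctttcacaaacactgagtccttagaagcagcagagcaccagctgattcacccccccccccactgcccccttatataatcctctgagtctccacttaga
Bst2: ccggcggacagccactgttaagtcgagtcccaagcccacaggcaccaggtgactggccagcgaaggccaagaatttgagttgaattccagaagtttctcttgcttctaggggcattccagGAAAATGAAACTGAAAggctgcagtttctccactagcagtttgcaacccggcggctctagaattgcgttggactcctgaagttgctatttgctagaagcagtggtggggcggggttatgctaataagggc
Ifit1: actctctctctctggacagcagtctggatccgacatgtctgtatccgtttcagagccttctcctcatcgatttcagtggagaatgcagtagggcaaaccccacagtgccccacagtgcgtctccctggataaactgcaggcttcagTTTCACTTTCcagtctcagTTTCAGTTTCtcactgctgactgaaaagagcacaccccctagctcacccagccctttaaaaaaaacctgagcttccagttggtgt
Rsad2: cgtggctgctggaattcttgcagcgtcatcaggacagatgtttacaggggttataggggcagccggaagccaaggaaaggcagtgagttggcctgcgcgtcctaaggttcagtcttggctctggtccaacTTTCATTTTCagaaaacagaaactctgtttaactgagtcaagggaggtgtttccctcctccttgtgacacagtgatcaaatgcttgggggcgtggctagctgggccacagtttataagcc
Oasl1: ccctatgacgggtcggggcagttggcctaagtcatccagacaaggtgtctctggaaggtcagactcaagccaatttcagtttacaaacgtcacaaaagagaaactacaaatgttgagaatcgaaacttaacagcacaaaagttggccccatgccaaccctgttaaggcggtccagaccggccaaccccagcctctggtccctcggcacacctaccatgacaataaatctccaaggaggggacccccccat
Counted from the start, the 2 matches begin at -156 and -122 in Ifit3, at -104 and -85 in Ifit1 and at -130 and -124 in Bst2, and the single match in Rsad2 begins at -120. A match is a description of letters and not a binding site. Members with a match were Bst2, Ddx58, Ddx60, Eif2ak2, Ifih1, Ifit1, Ifit3, Isg15, Oas1a, Oas3, Rsad2, Stat2 and Trim30a. In Ddx58, Eif2ak2 and Ifih1 the match began after the start, at 2, 18 and 32.

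Estimated depth was 6.86 to 7.76 M (mega) fragments in WT at 6 weeks and the library labelled KO and 24.5 to 27.7 M in the other libraries. Values are given as scaled FPKM, that is, FPKM divided by a factor for each library from the median ratio over 9874 genes. Each log2 difference is taken between values of log2(scaled FPKM + 1), and it understates the change of low genes. Across the 11296 tested genes WT at 21 days correlated better with the KI libraries (Pearson r = 0.951 and 0.943, a description across genes) than with WT at 6 weeks (0.910). WT at 6 weeks correlated best with the library labelled KO (0.939), so the libraries grouped as their depth did and not by age or genotype. KI against WT at 6 weeks, the library labelled KO against WT at 21 days, and the WT libraries against each other thus compare unlike depths. Allele or age cannot be told apart from depth in them. Malt1, measured over the whole gene, had 27.0 in WT at 21 days, 15.2 in WT at 6 weeks, 17.6 in the library labelled KO, and 55.9 and 37.8 in KI. Which exons the deletion removes is not given in the sources used here, so this value does not check the KO label. Foxp3 was present in every library, with 70.7, 39.5, 30.5, 70.1 and 73.6 in the order WT at 21 days, WT at 6 weeks, KO, KI replicate 1 and KI replicate 2. Xist, transcribed from the inactive X chromosome, had 11.9 in the library labelled KO and 0.130 to 1.17 elsewhere, while the Y-linked Eif2s3y was present in all 5. The order just given holds for every run of 5 values below.

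Markers of plasmacytoid dendritic cells and of myeloid cells stood apart in WT at 6 weeks, while the sum of NK cell markers was highest in the library labelled KO. The summed scaled FPKM of 8 plasmacytoid dendritic cell markers without Bst2 was 13.5, 83.7, 14.0, 3.22 and 2.50, and 7 of the 8 were highest in WT at 6 weeks. Siglech, the receptor that defines these cells, had 0.294, 16.8, 1.24, 0 and 0.149. The 11 myeloid markers summed to 38.2, 148.7, 63.1, 58.9 and 31.5, the 7 B cell markers to 18.0, 23.3, 6.59, 4.12 and 3.11, and the 6 NK cell markers to 3.29, 8.47, 21.8, 2.83 and 2.27. Gzma gave 14.9 of the NK cell sum in the library labelled KO. The NK cell markers Ncr1 and Klra8 were highest in WT at 6 weeks, at 0.291 and 0.178. The 7 Treg markers summed to 1073, 837.9, 779.7, 1047 and 1058. The part of these markers in the results on interferon-stimulated genes was not tested. In bulk RNA, fewer cells of a type and less RNA per cell cannot be told apart.

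**Figure D1:**
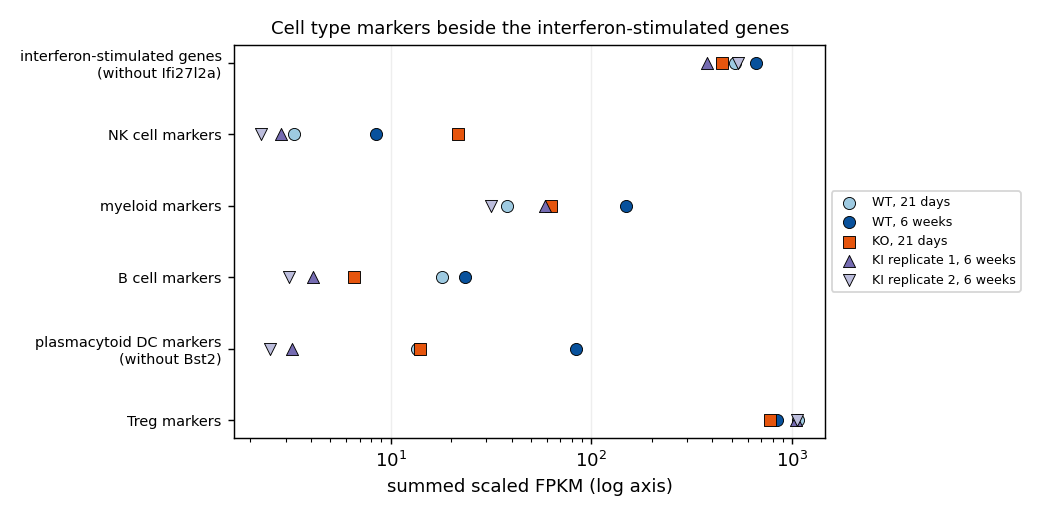
Summed scaled FPKM (log axis) of the marker lists and of the members without Ifi27l2a, with 1 point for each of the 5 libraries and no error bar. The plasmacytoid dendritic cell markers reach 83.7 in WT at 6 weeks and lie between 2.50 and 14.0 in the other libraries, while the members without Ifi27l2a range from 377.1 to 664.

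The 36 members had a median of 10.6 scaled FPKM in WT at 21 days, 13.1 in WT at 6 weeks, 7.46 in the library labelled KO, and 7.51 and 12.0 in KI replicates 1 and 2. In WT at 21 days the levels ran from 1.26 for Mx2 to 601 for Ifi27l2a, a small interferon-induced membrane protein, which exceeded the sum of all other members in WT at 21 days and in KI replicate 2. Without Ifi27l2a the members summed to 518.5, 664, 448.3, 377.1 and 539.1. The median and this sum were both highest in WT at 6 weeks. Of the 36 members, 35 had a mean scaled FPKM of at least 1 and entered the counts below. Mx2 did not, and Oasl1 reached that mean only through WT at 6 weeks.

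**Figure D2:**
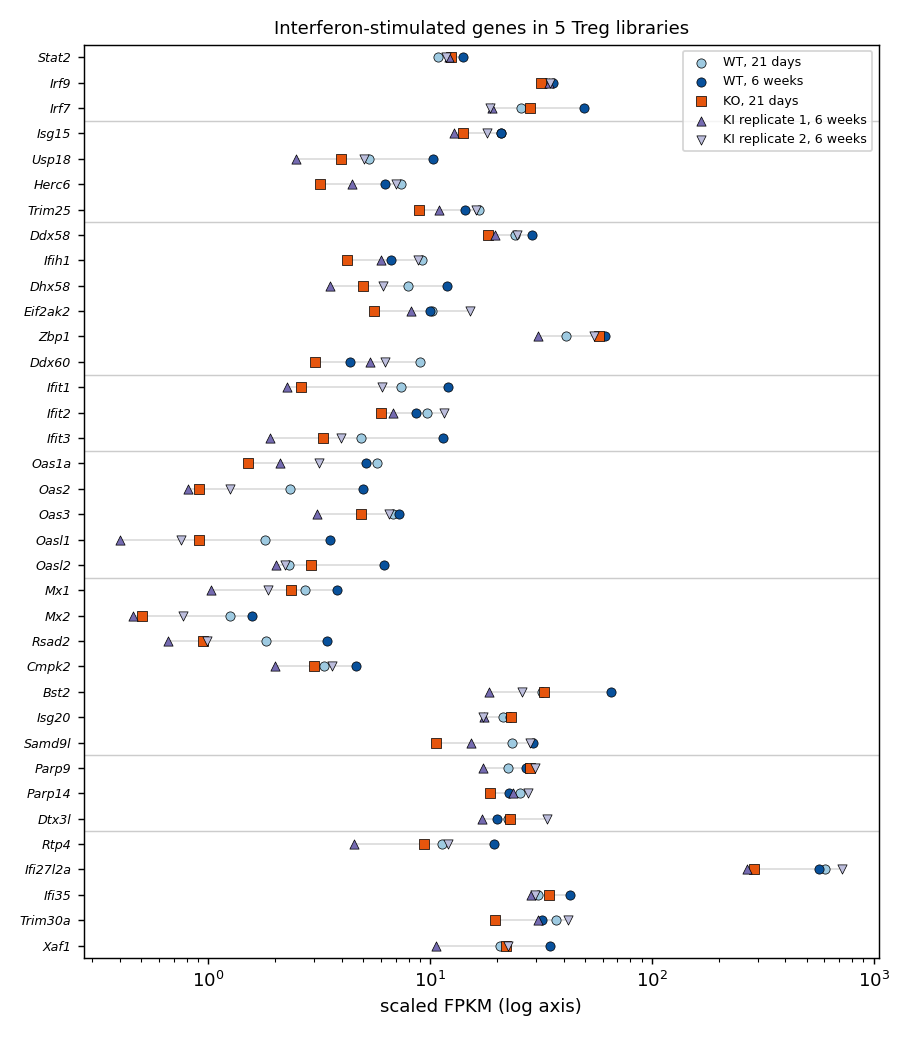
Scaled FPKM (log axis) of the 36 members in each of the 5 libraries, ordered by role, with 1 point a library and a grey line from the lowest to the highest. Ifi27l2a lies far to the right at 269 to 724, and in most rows the dark blue point of WT at 6 weeks is the rightmost.

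KI was compared with WT of the same age, whose estimated depth was 6.86 M fragments against 24.7 and 24.5 M in KI. No member passed limma with Benjamini-Hochberg adjustment over all 11296 genes (0 of 35, adjusted p from 0.359 to 0.980), where 1 gene in all passed, the mitochondrial tRNA gene mt-Tp (0.00885%). An unadjusted p under 0.05 was reached by 7 members, all lower in KI, while 10.7% of all genes reached it and 4.97% did so on the lower side. By size, 7 of 35 members (20.0%) were lower past 2-fold in both KI libraries, against 2.80% of all genes. These were the same 7, Bst2, Ifit3, Irf7, Oas2, Oasl1, Oasl2 and Rsad2. Oasl1 entered only through WT at 6 weeks, the library where it was high, so its place here was partly fixed by the filter on low values. Among genes that pass the filter without that library, a setting added after the data were seen, 6 of 34 members (17.6%) were lower past 2-fold in both, against 2.07% of 11147 genes. None was higher past 2-fold in both (background 3.01%). At any size 24 were lower in both KI libraries (38.0% of all genes were), 2 were higher in both (36.6%), namely Ddx60 and Parp14, and 9 lay on opposite sides (24.6%). In KI replicate 1 alone 33 were lower (50.1%), 15 of them past 2-fold (5.22%), and in replicate 2 alone 24 (50.6%), 7 of them past 2-fold (5.05%). None was higher past 2-fold in either (7.99% and 6.1%). The median log2 difference of the members was -0.91 in KI replicate 1 and -0.24 in replicate 2, with a median of all genes within 0.02 of 0 in both. Only the KI pair gives the fit a spread, with 1 residual degree of freedom, so a missing call does not show that values did not differ. On simulated data with that pair's spread shuffled across genes, which removes its link to level, the fit recovered 0% of changes up to 16-fold. With WT at 21 days as the control the count past 2-fold in both was 0.

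Among the factors that transcribe these genes, Irf7 was lower past 2-fold in both KI libraries, while Irf9 and Stat2 were within 0.24 of WT at 6 weeks on the log2 scale. Irf7, a factor that amplifies interferon production (chr7:141262706-141266481, GRCm38), had 25.6, 49.3, 28.3, 19.1 and 18.7. WT at 6 weeks, with bounds of 43.9 to 54.7, was the single high library, and the other 4 lay between 18.7 and 28.3. The KI mean was 18.9 ± 0.283 (SD, n = 2), WT at 6 weeks was 2.61-fold that mean, and limma gave a log2 difference of -1.34 (SE 0.22, adjusted p = 0.359). Irf9, the DNA-binding part of the STAT complex, had 33.2, 35.8, 31.7, 34.3 and 34.9. Stat2 had 10.9, 14.1, 12.5, 12.2 and 11.9. Irf9 spanned 31.7 to 35.8 over all 5 libraries, and Stat2 was lowest in WT at 21 days and highest in WT at 6 weeks.

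The IFIT proteins bind viral RNA and are among the strongest interferon targets, and their genes lie side by side on chromosome 19. Ifit3 (chr19:34583531-34588731) had 4.904, 11.4, 3.31, 1.89 and 3.99, and limma gave -1.71 (SE 0.48, adjusted p = 0.457). WT at 6 weeks was 3.87-fold the KI mean of 2.94 ± 1.48 (SD, n = 2). Ifit1 (chr19:34640871-34650009) had 7.42, 12.01, 2.62, 2.27 and 6.09, with KI replicate 2 at 2.69-fold replicate 1. Both genes were highest in WT at 6 weeks and lowest in KI replicate 1, and the bounds of both KI libraries lay under those of WT at 6 weeks. Ifit2 (chr19:34550694-34576419) had 9.66, 8.63, 5.98, 6.805 and 11.6. It did not share that order, since it was highest in KI replicate 2 and lowest in the library labelled KO.

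The OAS genes encode synthetases of short oligoadenylates that activate RNase L, and the OAS-like members encode related proteins. All 5 lay on chromosome 5 and all 5 were lower than WT at 6 weeks in both KI libraries. Oas2 (chr5:120730333-120749853) had 2.33, 4.97, 0.912, 0.813 and 1.25, with a limma difference of -1.56 (SE 0.30, adjusted p = 0.393). Oasl1 (chr5:114923240-114937915), which restrains translation of Irf7, had 1.798, 3.52, 0.913, 0.3998 and 0.751, with a difference of -1.53 (SE 0.27, adjusted p = 0.379), a gene tested only through its value in WT at 6 weeks. Oasl2 (chr5:114896936-114912234) had 2.32, 6.18, 2.89, 2.02 and 2.23. Its low libraries lay close together at 2.02 to 2.89, and WT at 6 weeks stood alone, with bounds of 4.91 to 7.45. Oas1a (chr5:120896256-120907521) had 5.79, 5.17, 1.51, 2.11 and 3.17. Oas3 (chr5:120753098-120777661) had 6.79, 7.27, 4.897, 3.09 and 6.56. In these the WT libraries were close to each other and above all 3 mutant libraries, but for Oas3 the bounds of KI replicate 2 (5.94 to 7.18) overlap those of both. Oas genes are close relatives that can share reads.

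Among the antiviral effectors Bst2 (tetherin, which holds budding virus at the membrane, chr8:71534264-71537437) had 31.9, 65.8, 32.7, 18.4 and 26.1. WT at 6 weeks was 2.96-fold the KI mean of 22.2 ± 5.41 (SD, n = 2), with a limma difference of -1.54 (SE 0.31, adjusted p = 0.4002). Bst2 is also a marker of plasmacytoid dendritic cells, and the sum of the 8 other markers was 83.7 in WT at 6 weeks against 3.22 and 2.50 in KI. Their part in its difference was not tested. Rsad2 (viperin, which makes a chain-terminating nucleotide, chr12:26442753-26456452) had 1.82, 3.44, 0.948, 0.657 and 0.986, and Cmpk2, its neighbour on chromosome 12, had 3.34, 4.65, 3.003, 2.01 and 3.63. Both were highest in WT at 6 weeks and lowest in KI replicate 1. Mx1, a dynamin-like restriction factor, had 2.72, 3.81, 2.36, 1.03 and 1.86, and Mx2, which was not tested, had 1.26, 1.57, 0.505, 0.457 and 0.768. Samd9l, a translation inhibitor, had 23.5, 29.3, 10.7, 15.3 and 28.2, and Isg20, an exonuclease, had 21.3, 22.98, 23.3, 17.5 and 17.3. Samd9l in KI replicate 2 was within the bounds of WT at 6 weeks, whereas Isg20 was lowest in the KI pair and varied least in the group.

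In the ISG15 system, Isg15, the ubiquitin-like modifier itself, had 20.9, 20.8, 14.1, 12.8 and 18.01, and Usp18, the protease that removes it and restrains the receptor, had 5.33, 10.3, 3.95, 2.49 and 5.04. WT at 6 weeks was 2.75-fold the KI mean for Usp18 and 1.35-fold for Isg15, and the limma difference of Usp18 was -1.30 (SE 0.48, adjusted p = 0.482). The ligase genes were not lower in both KI libraries. Herc6, an ISG15 ligase, had 7.4, 6.27, 3.198, 4.46 and 7, and Trim25, a ubiquitin ligase that acts on RIG-I, had 16.6, 14.4, 8.93, 10.9 and 16.1. For each, KI replicate 1 was under WT at 6 weeks and replicate 2 slightly above it.

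The sensors of nucleic acid differed among themselves. Dhx58, the regulator LGP2, had 7.92, 11.97, 4.98, 3.54 and 6.12, and Zbp1, which binds Z-form nucleic acid, had 40.98, 61.7, 57.7, 30.8 and 54.9. Ddx58, the RNA sensor RIG-I, had 24.1, 28.96, 18.2, 19.6 and 24.7. In these 3 WT at 6 weeks was the highest library. Ifih1, the RNA sensor MDA5, had 9.23, 6.64, 4.203, 6.01 and 8.86, and Eif2ak2, the kinase PKR, had 10.3, 9.99, 5.601, 8.204 and 15.2. Ddx60, a helicase linked to RIG-I signalling, had 9.04, 4.37, 3.02, 5.38 and 6.26. It was highest in WT at 21 days and higher in both KI libraries than in WT at 6 weeks, where its bounds were wide at 2.103 to 6.64.

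The ADP-ribosyltransferase genes and Dtx3l lie together on chromosome 16, and none of the 3 was lower in both KI libraries than in WT at 6 weeks. Parp9 had 22.6, 27.1, 28.2, 17.4 and 29.8, and Dtx3l, a ubiquitin ligase that works in a complex with Parp9, had 22.5, 20.1, 23.1, 17.2 and 33.7. Parp14 had 25.4, 22.6, 18.6, 23.6 and 27.6. Parp9 and Dtx3l overlap by 682 bases on opposite strands, and since the strand setting is not given in the sources used here, their reads cannot be told apart there. The same holds for Dhx58, Eif2ak2, Herc6, Ifi35, Irf7, Oas2, Oasl1, Rtp4, Trim30a and Usp18, each of which overlaps another gene on the opposite strand. Parp9 and Dtx3l were both highest in KI replicate 2 and lowest in replicate 1.

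The remaining members have other or less settled roles. Xaf1, an antagonist of the apoptosis inhibitor XIAP, had 20.7, 34.8, 22.03, 10.6 and 22.4, and Rtp4, a receptor chaperone, had 11.3, 19.4, 9.35, 4.52 and 12.1. Both were highest in WT at 6 weeks and differed over 2-fold between the KI replicates. Ifi35, a partner of Nmi, had 30.7, 42.7, 34.5, 28.6 and 29.7, and Trim30a, a regulator of NF-kB signalling, had 36.97, 31.96, 19.7, 30.6 and 41.9. Ifi27l2a had 601, 570.1, 289.5, 269 and 724. The KI replicates lay at either end of its range, 2.69-fold apart. Ifi44, which is no member, reached 0.493 in WT at 6 weeks.

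**Figure D3:**
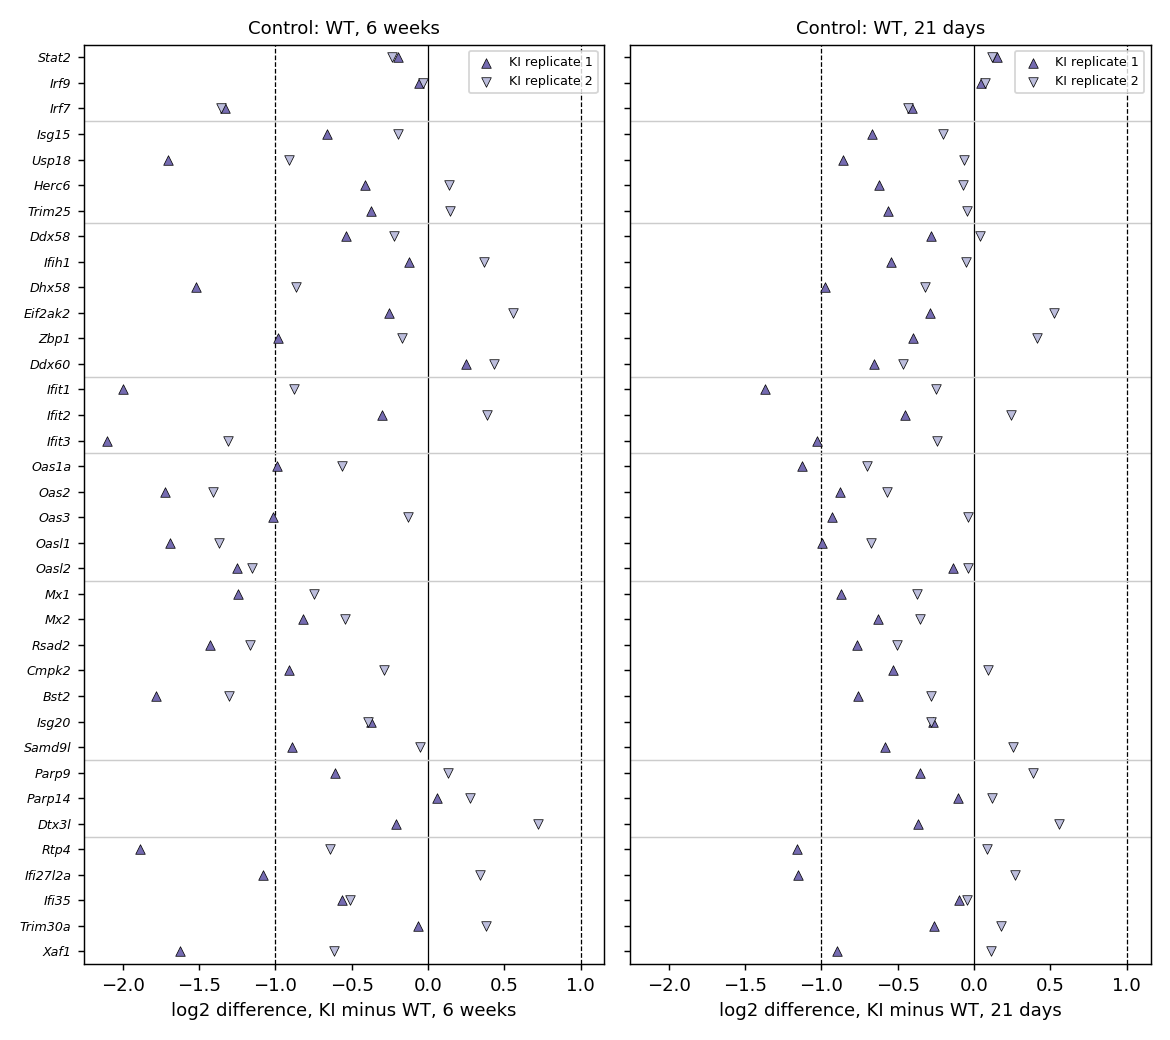
Log2 difference of scaled FPKM + 1 for each member in KI replicates 1 and 2 (triangles), from WT at 6 weeks (left) and from WT at 21 days (right), with dashed lines at 2-fold. On the left 7 members have both points past the lower line, on the right 0 do.

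The KI libraries also differed from each other in the members. KI replicate 1 was under replicate 2 in 32 of 35 members (50.3% of all genes were), by a median of -0.50, and past 2-fold in 4 (background 2.44%), namely Ifi27l2a, Ifit1, Rtp4 and Xaf1, while 0 were higher past 2-fold (4.14%). None of these 4 is among the 7 lower past 2-fold than WT at 6 weeks in both. The bounds did not overlap in 24 members, against 24.3% of all genes in that direction. Irf7, Isg20 and Stat2 were the 3 members not lower in replicate 1, and Irf7, Irf9, Stat2 and Isg20 were within 0.04 of each other on the log2 scale. The myeloid markers went the other way, with 58.9 in replicate 1 and 31.5 in replicate 2.

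Against WT at 21 days, the library that KI resembled most over all genes, fewer members were lower in both KI libraries and the medians lay nearer to 0. In both KI libraries 20 of 35 members were lower at any size, 16 of them among the 24 lower than WT at 6 weeks (28.5% of all genes were), 0 were lower past 2-fold (0.788%) and 0 higher (0.398%). In replicate 1 alone 33 were lower (49.7%), 5 of them past 2-fold (1.81%), and in replicate 2 alone 20 (49.1%), 0 of them past 2-fold (3.47%), with 0 higher past 2-fold in either (2.04% and 2.28%). The medians were -0.59 in KI replicate 1 and -0.05 in replicate 2. Irf7, at -0.41 and -0.44, and Oas2, at -0.88 and -0.57, stayed on the lower side in both replicates, as did Oasl1 at -0.999 and -0.68. Oasl2, at -0.14 and -0.04, was close to WT at 21 days. In all, 16 members were lower in both KI libraries than in both WT libraries (16.8% of all genes were), among them every OAS member, Ifit1, Ifit3, Bst2, Irf7, Isg15, Usp18, Mx1 and Rsad2. Of these, Oasl1 was tested only through WT at 6 weeks.

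The library labelled KO (7.76 M fragments) was compared with WT at 21 days (27.7 M), with 1 library each and hence no test. It had 6 of 35 members lower past 2-fold, Ddx60, Herc6, Ifi27l2a, Ifit1, Oas1a and Samd9l (17.1%, against 8.14% of all genes), and 0 higher (6.13%). At any size 25 were lower (48.6%) and 10 higher (51.1%), and the median difference was -0.43 against 0.02 over all genes. With FPKM as deposited, where the median of all genes shifts by 0.35, 2 members were lower past 2-fold, Ddx60 and Oas1a, and the members' median was -0.07, which is -0.43 relative to that shift.

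The largest differences from WT at 21 days were in Oas1a, Ddx60 and Ifit1. WT at 21 days had 3.84 times the value of the library labelled KO for Oas1a, with bounds of 5.13 to 6.45 there and 0.948 to 2.07 in the library labelled KO, where its value has the precision of 29 fragments. The difference was -1.44 for Oas1a, -1.32 for Ddx60 and -1.22 for Ifit1. Samd9l, at -1.07, and Ifi27l2a, at -1.05, followed, and Ifih1 and Trim30a lay just inside 2-fold at -0.98 and -0.88. For 18 members the bounds of the library labelled KO lay wholly under those of WT at 21 days (27.2% of all genes). These included all 3 IFIT genes, 5 of the 6 sensors, and Isg15, Herc6 and Trim25.

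The 10 members on the higher side were Bst2, Dtx3l, Ifi35, Irf7, Isg20, Oasl2, Parp9, Stat2, Xaf1 and Zbp1. The largest of these was Zbp1 at 0.48, and Irf7 was at 0.14 and Bst2 at 0.04. Irf7 and Bst2, which were lower past 2-fold than WT at 6 weeks in both KI libraries, were thus close to WT at 21 days in the library labelled KO, which is compared with another WT library than KI was. The summed plasmacytoid dendritic cell markers were 14.0 in the library labelled KO and 13.5 in WT at 21 days, but single markers went both ways. Of 9 tested, Bst2 included, 7 were higher and 2 lower than in WT at 21 days, with a median of 0.54. Ccr9 had 2.58 against 8.17, while Siglech had 1.24 against 0.294. Summed NK cell markers were 21.8 against 3.29, Treg markers 779.7 against 1073 and B cell markers 6.59 against 18.0. These sums also hide unlike markers. Gzma had 14.9 against 1.54, while Klra8 was at 0 against 0.148. Of the 7 Treg markers 4 were lower and 3 higher, and Ctla4 alone had 118 against 395.5.

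Against WT at 6 weeks, to which the library labelled KO was closer over all genes and in depth, 32 of 35 members were lower in it (51.2% of all genes were), and 9 were lower past 2-fold (2.29%), with a median of -0.64. Both counts include Oasl1, which was tested only through WT at 6 weeks, so its place in them was partly fixed by the filter. No member was higher past 2-fold (3.30%). Lower than both WT libraries past 2-fold were Ifit1, Oas1a and Samd9l, 3 of 35 (0.938% of all genes). At any size it was under both WT libraries in 25 members (34.5%). Dtx3l, Isg20 and Parp9 were the members not lower than in WT at 6 weeks.

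**Figure D4:**
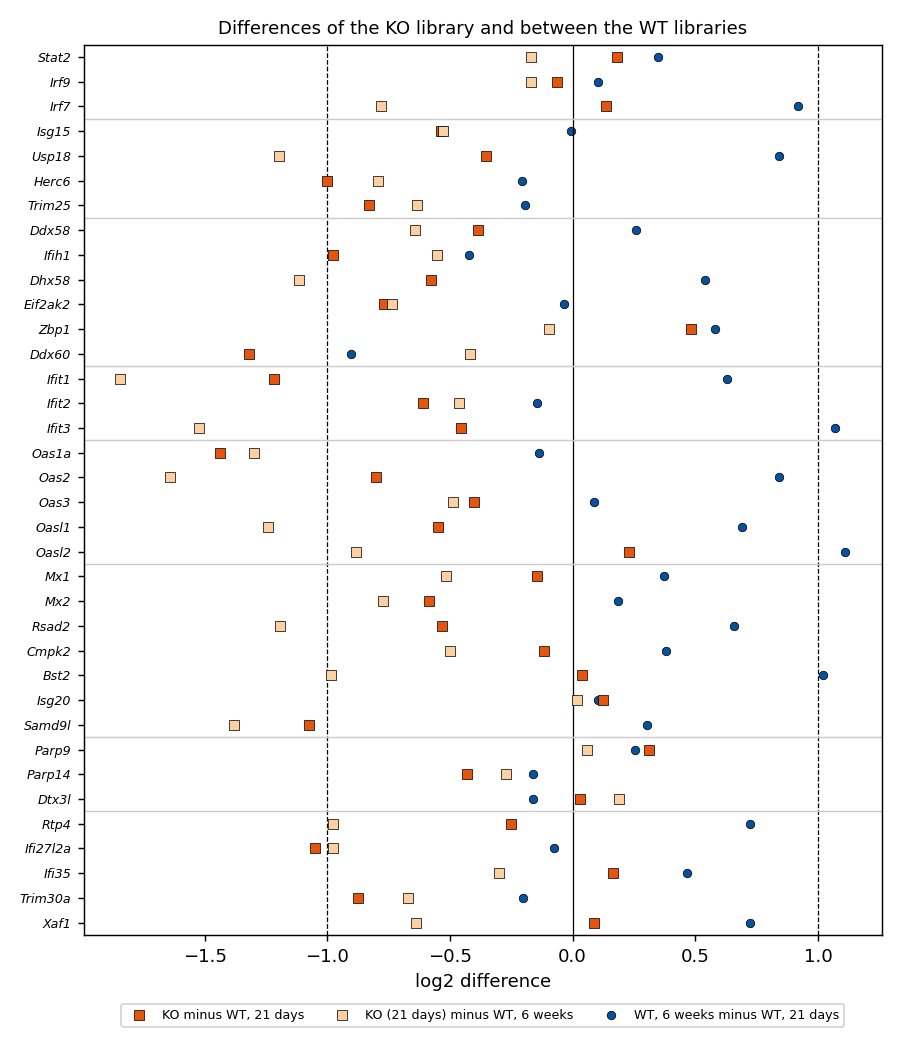
Log2 difference of scaled FPKM + 1 for each member, for the library labelled KO from WT at 21 days (dark squares) and from WT at 6 weeks (light squares), and for WT at 6 weeks from WT at 21 days (circles). Dashed lines mark 2-fold. Ifit1, Oas1a and Samd9l have both squares past the lower line, and Oasl2, Ifit3 and Bst2 have circles past the upper one.

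The WT libraries also differed from each other, with 1 library an age and hence no test. WT at 6 weeks had 3 members higher past 2-fold than WT at 21 days (3.38% of all genes), namely Oasl2 at 1.11, Ifit3 at 1.07 and Bst2 at 1.02, and 0 lower (5.18%). With FPKM as deposited the count was 8 and the shift of all genes 0.35. Irf7 was higher by 0.92 and the median of the members was 0.30. For 16 members the bounds of WT at 6 weeks lay wholly over those of WT at 21 days (18.6%). At any size 23 members were higher (50.9%) and 12 lower (48.6%), the latter being Ddx60 at -0.90, Ifih1 at -0.42, Herc6, Trim25, Trim30a, Parp14, Dtx3l, Eif2ak2, Ifit2, Oas1a, Ifi27l2a and Isg15. The 23 include Oasl1, which was tested only through WT at 6 weeks. Isg15, at -0.01, turned to the higher side with upper-quartile scaling. Bst2, Ifit3 and Oasl2 are thus also among the 7 lower in KI than in this WT library, and these comparisons share it.

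Over the 5 libraries, WT at 6 weeks was the highest in 21 of 35 members (20.7% of all genes) and the lowest in 0 (18.0%). Oasl1, tested only through WT at 6 weeks, is among these 21 and among the 11 members listed below, so its place there was partly fixed by the filter. KI replicate 1 was the lowest in 20 (21.7%) and the highest in 0 (20.0%), and the library labelled KO was the lowest in 12 (24.0%) and the highest in 1, Isg20 (24.6%). KI replicate 2 was the highest in 7 (20.7%). In 11 members, Dhx58, Ifit1, Ifit3, Isg15, Mx1, Oas1a, Oas2, Oas3, Oasl1, Rsad2 and Usp18, all 3 mutant libraries lay under both WT libraries (7.02% of all genes), and in 0 over both (7.34%). The values of the WT and mutant libraries were apart in these 11, but the bounds were apart only in 3 of them, Ifit1, Oas1a and Oas2 (1.02% of all genes). The mutant libraries differ in allele and age and are not replicates.

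**Figure D5:**
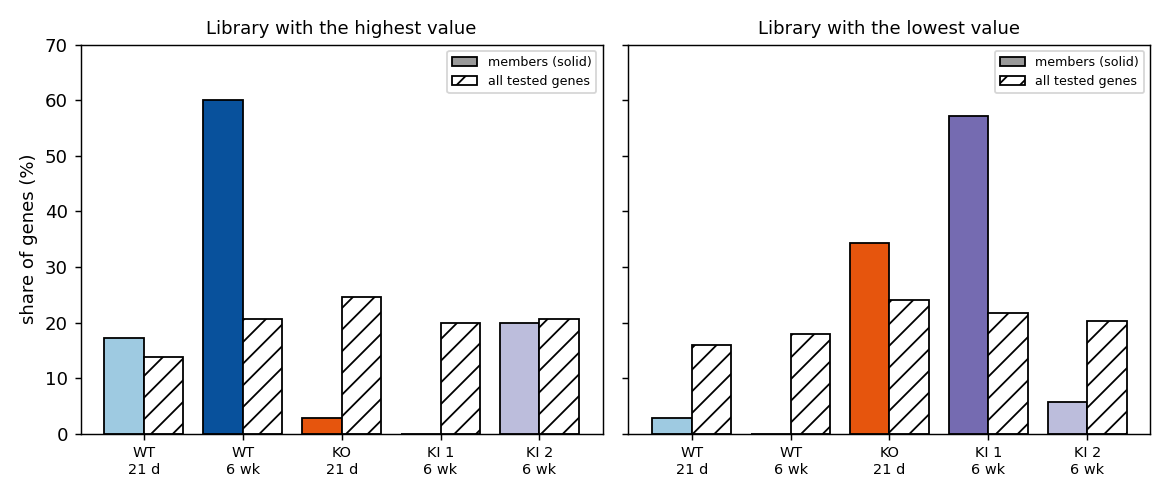
Share (%) of the 35 tested members (solid bars, 1 colour a library) and of all 11296 tested genes (hatched bars) for which each library had the highest value (left) or the lowest value (right). WT at 6 weeks is highest in 60.0% of members and KI replicate 1 lowest in 57.1%, against 20.7% and 21.7% of all genes. Both member shares include Oasl1, which was tested only through WT at 6 weeks.

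The interferons themselves were near 0. Of 18 type I interferon genes listed, 16 were analysed, 14 were at 0 in every library, and the highest scaled FPKM of any was 0.159. The receptor chains and their kinases were present in all libraries, and each differed by less than 2-fold from WT of its labelled age in every mutant library. Ifnar1 had 46.6, 40.3, 29.9, 54.4 and 48.2, and Ifnar2 had 25.6, 30.9, 21.9, 19.9 and 22.2. Ifnar2 was lower than WT at 6 weeks in both KI libraries, with log2 differences of -0.61 and -0.46, and Ifnar1 was higher by 0.42 and 0.25. The kinase Jak1 had 136, 104, 76.5, 103 and 94.99, and Tyk2 had 15.7, 17.7, 14.3, 15.9 and 14.7. Among the more abundant of the list, Ifngr1, a chain of the interferon gamma receptor, had 126, 65.05, 122, 208 and 114, and Stat3 had 71.2, 36.7, 46.3, 92.5 and 54.2, both lowest in WT at 6 weeks. Of the 9 receptor and JAK-STAT genes, 4 were lower and 5 higher than WT at 6 weeks in KI replicate 1 (50.1% of all genes were lower). Of the higher ones, 2 were past 2-fold, Stat3 and Ifngr1 (7.99% of all genes). In replicate 2, 4 were lower and 5 higher (50.6% of all genes were lower). All 9 were lower in the library labelled KO than in WT at 21 days (48.6%), with a median of -0.22 and 0 past 2-fold (8.14%).

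Listed inhibitors of the pathway went both ways. Of 7, leaving out the member Usp18, 5 were higher and 2 lower than WT at 6 weeks in each KI library, where 50.1% and 50.6% of all genes were lower. Cish, an inhibitor of cytokine signalling, had 51.1, 42.3, 71.2, 89.9 and 73.3, and its relative Socs3 had 44.3, 24.1, 76.8, 109.9 and 39.05. Both were lowest in WT at 6 weeks. Ptpn6, the phosphatase SHP-1, had 45.9, 68.97, 44.2, 33.2 and 44.3, with WT at 6 weeks the highest and log2 differences of -1.03 and -0.63 in KI. Socs1, which blocks JAK kinases, had 21.1, 30, 42.03, 46.7 and 33.6, with WT at 21 days the lowest. Of 5 tested interferon regulatory factors that are not members, 3 were higher and 2 lower than WT at 6 weeks in each KI library. Of all genes 50.1% and 50.6% were lower. Against WT at 21 days, 4 were higher and 1 lower in replicate 1, and 3 higher and 2 lower in replicate 2. Irf1, a factor also induced by interferon gamma, had 135, 80.9, 99.2, 193 and 111, Irf2 had 35.4, 23.03, 26.9, 33.4 and 40.9 and Irf4 had 21.4, 11.3, 14.3, 31.1 and 39.5, all 3 lowest in WT at 6 weeks. Irf3, which drives interferon transcription downstream of the sensors, had 33.4, 59.5, 56.7, 41.01 and 36.4, so it was highest in WT at 6 weeks with log2 differences of -0.53 and -0.69 in KI. Of 11 tested genes that induce interferon, 9 were lower than WT at 6 weeks in KI replicate 1 and 7 in replicate 2. The medians were -0.21 and -0.23, and 50.1% and 50.6% of all genes were lower. Against WT at 21 days most went the other way, with 3 and 4 of the 11 lower and medians of 0.19 and 0.08. The most abundant were Ikbke, with 69.3, 87.7, 71.6, 74.9 and 74.5, and Tmem173, the adaptor STING, with 49.96, 67.5, 78.1, 58.2 and 74.3. The adaptor Myd88 had 19.04, 27.5, 33, 22.5 and 19.6, and the ubiquitin ligase Traf6 had 21.4, 11.4, 13.8, 26.9 and 19.6, so Myd88 was lower and Traf6 higher than WT at 6 weeks in both KI libraries.

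A further list of 67 interferon-stimulated genes, of which 54 were tested, showed smaller differences. Its medians from WT at 6 weeks were -0.43 and -0.05 in KI replicates 1 and 2, where the members had -0.91 and -0.24. Past 2-fold in both KI libraries, 2 of the 54 were lower, Ly6c2 and Ifi204 (2.80% of all genes were), and 1 was higher, Pydc4 (3.01%). Both counts were near these shares, and the genes were named after their values were seen. Ly6c2, a surface antigen of monocytes and T cells, had 6.498, 23.1, 13.7, 5.51 and 5.89. Pydc4 had 25.4, 2.08, 1.92, 8.02 and 29.8, so KI replicate 2 and WT at 21 days were high, KI replicate 1 lay between, and WT at 6 weeks and the library labelled KO were low. In the library labelled KO the median from WT at 21 days was -0.05, with 29 lower and 25 higher (48.6% and 51.1% of all genes), where the members had -0.43. The 4 most abundant genes of the list were below 2-fold from WT at 6 weeks in both KI libraries. Shisa5 had 1563, 1462, 1205, 1344 and 1564, and Ly6e, a surface protein of the Ly6 family, had 447, 480.2, 529.5, 328 and 361. Ms4a4b had 356, 285, 242, 306 and 479.5 and Ms4a6b had 223, 238, 203, 194 and 291, both highest in KI replicate 2. As in the members, KI replicate 1 was under replicate 2 in most genes of the list, 44 of 54 (50.3% of all genes were).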

How the data were processed

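Total RNA of sorted Treg cells was sequenced in 5 libraries. Per the submitters' processing notes, the authors used CASAVA, HISAT2 2.1.0 and Cufflinks 2.2.1 on build GRCm38, with their order, settings, strand setting and annotation not given in the sources used here. Per the file headers, the deposited values are FPKM per gene with lower and upper bounds. The bounds were taken to lie 2 standard errors from the value, which the headers do not state. No counts were used, so depth was estimated from these bounds, which speak only to error of counting and assignment inside 1 library. FPKM were joined on gene ID, symbol and position, and divided by median-of-ratios factors (0.876, 1.15, 1.15, 0.868 and 1.01). Genes whose scaled FPKM averaged at least 1 over the libraries, 11296 in all, were analysed on log2(scaled FPKM + 1). KI against WT at 6 weeks used limma 3.58.1 in R 4.3.3 with an intensity trend (two-sided, Benjamini-Hochberg adjustment over all genes, threshold 0.05), beside a count by size of genes whose KI values were both past 2-fold. That fit assumes that the lone WT library varies like the KI pair. It was tested on simulated data and recovered 0% of changes of 2- to 16-fold at the KI pair's spread, shuffled across genes, and 100% at a fixed spread of 0.05. Other comparisons have 1 library a group and were described by size. All members with a value are given in every library, with the largest differences singled out by rank, and of other lists up to 4 genes by abundance, with the receptor chains, their kinases and Socs1. A gene that this rule names is not reported here. The members and lists were chosen with earlier results of these data known. Of the 36 members and Ifi44, 14 overlap another gene in GENCODE, 12 of them one on the opposite strand. File starts were counted from 0, and coordinates here are counted from 1. Other pseudocounts, filters, scalings and controls were tried.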

Additional observations from a re-analysis of the deposited data

How the results depend on the processing

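Members called by limma remained 0 of 35 under every alternative run, with adjusted p of members no lower than 0.150 (protein-coding genes only). The count over all genes, 1, became 50 with a pseudocount of 0.1, 15 among protein-coding genes only, and 0 without a filter, with upper-quartile scaling, without trend, or with WT at 21 days as control. Members lower past 2-fold in both KI libraries, 7, became 0 against WT at 21 days and 1 against both WT libraries as 1 group. The count was 10 with FPKM as deposited, 8 with a pseudocount of 0.1 and 6 with the filter applied without WT at 6 weeks. With a KI library left out it rests on a single library and was 7 in replicate 2 (5.05% of all genes) and 15 in replicate 1 (5.22%). The median log2 difference of the tested members, -0.54, ranged from -0.24 to -0.91 with a KI library left out and was -0.82 with FPKM as deposited, where all genes shift by -0.26. In the library labelled KO, members lower past 2-fold went from 6 to 2 with FPKM as deposited. Between the WT libraries, members higher past 2-fold went from 3 to 8 with FPKM as deposited, and members lower from 0 to 1 (Ddx60) with a pseudocount of 0.1. Relative to the shift of all genes, FPKM as deposited changed the direction of 0 members in KI and KO and of 1 between the WT libraries. The cause was not tested, except that FPKM as deposited moves all genes. No paired analysis was possible because only KI has more than 1 replicate. Depth limits the lowest members: in KI replicate 1 the value of Oasl1 has the precision of 4 fragments and that of Rsad2 of 8.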
